A study of Mus musculus with 12 samples.

Results

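The genes described here are *Cd14* and its partners in the recognition of microbial ligands: the co-receptor gene *Ly96* (MD-2), 7 Toll-like receptor genes (*Tlr1*, *Tlr2*, *Tlr4*, *Tlr6*, *Tlr7*, *Tlr9* and *Tlr13*) and the adaptor gene *Myd88*. They were taken by gene name, and all 10 were present among the 52636 genes of the deposited counts for each cell type. RNA was sequenced from neutrophils freshly isolated from mouse bone marrow and from bone marrow monocytes kept for 3 days with M-CSF at 10 ng/ml, which the labels call monocytes/macrophages and which are called macrophages here. Each cell type was exposed for 4 h to 1 nM calcitonin gene-related peptide (CGRP), a neuropeptide of sensory neurons, or to PBS, the saline control; each of the 4 groups has 3 libraries. For its cell isolations the study used wild-type adult C57BL/6J mice, a background that all groups share, with kits for neutrophil enrichment or monocyte isolation. The labels name no transgene or deletion. The sources used here do not state that the 3 libraries of a group came from separate mice. The p-values therefore measure the spread between these libraries, which may be technical.

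CD14 is a lipid-anchored surface protein that binds bacterial lipopolysaccharide and passes it to the complex of TLR4 with MD-2. TLR2 pairs with TLR1 or TLR6 to bind bacterial lipopeptides, whereas TLR7, TLR9 and TLR13 sit in endosomes and recognise single-stranded RNA, unmethylated CpG DNA and bacterial ribosomal RNA. All of these receptors signal through the adaptor MyD88, and in myeloid cells the signal ends in NF-κB activity and cytokine transcription.

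CGRP raised *Cd14* in both cell types, 1.73-fold in neutrophils and 5.21-fold in macrophages, and the rise was larger in macrophages. In macrophages *Tlr1* and *Tlr13* fell, by factors of 2.85 and 2.37. In neutrophils *Tlr2* rose 1.49-fold, a call that depended on the fit and on single libraries. The remaining members passed the test in neither cell type, and *Tlr9* was too low to be tested. In counts, 2 members were higher and 0 lower among the 8 tested in neutrophils, where 2.53% of all 9819 genes tested were called, 1.51% higher and 1.02% lower. No member was lower there at an unadjusted p under 0.05 or by edgeR or DESeq2. In macrophages 1 member was higher and 2 were lower among the 9 tested, where 7.43% of 9393 genes were called, 3.46% higher and 3.97% lower. The median log2 fold change of the members was 0.14 in neutrophils and -0.18 in macrophages, against 0.00080 and 0.0047 over all genes tested.

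The libraries held between 2002559 and 3631989 counts, and CGRP replicate 3 was the shallowest in both cell types. A floor of 3 counts corresponds to between 0.826 and 1.5 CPM (counts scaled to a common library total) in a single library and covers counting error only. Levels below are CPM after TMM scaling (trimmed mean of M values, which adjusts library totals for composition) over the 12 libraries. The reads were primed from the poly(A) tail, so a level follows the 3′ end of a transcript, and levels are compared between samples and not between genes.

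The labels were checked against marker genes. The summed level of 10 neutrophil genes, led by *S100a8*, lay between 155338 and 233651 CPM in the neutrophil libraries and between 300 and 441 CPM in the macrophage libraries. The summed level of 10 macrophage genes was 35305 to 51997 CPM in macrophages, and in neutrophils it was 15329 to 25138 CPM, nearly all of it *Lyz2*, a lysozyme gene that neutrophils also express. The neutrophil libraries also held transcripts of 5 monocyte genes (summed 5770 to 8687 CPM, led by *Chil3*), 5 erythroid genes (4454 to 5773 CPM, led by *Hbb-bs*), 5 progenitor genes (2906 to 3734 CPM, led by *Elane* or *Mpo*) and 5 eosinophil, basophil and mast cell genes (892 to 1136 CPM, led by *Prg2*). Whether these transcripts came from other cells or from the neutrophils themselves was not tested. In these bulk samples fewer cells of a type and less RNA per cell cannot be told apart.

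Some of these markers moved with CGRP. In neutrophils *Ccr2*, a monocyte chemokine receptor gene, fell by 0.49 on the log2 scale (limma-voom, adjusted p = 1.34e-03), and *Lyz2* fell by 0.39 (adjusted p = 0.0296, not called by edgeR). In macrophages *Ccr2* fell by 0.81 (adjusted p = 4.80e-04) and *Cx3cr1*, another monocyte receptor gene, fell by 1.36 (adjusted p = 1.43e-04). These were 1 of the 5 monocyte genes and 1 of the 9 macrophage genes tested in neutrophils, and 2 of the 5 monocyte genes in macrophages, where the other 3 had log2 fold changes above zero that did not pass (*Chil3* 0.36, adjusted p = 0.222, *Ly6c2* 0.34, adjusted p = 0.307, and *F13a1* 0.33, adjusted p = 0.288) and the median of the 5 was 0.33. In neutrophils 4 of the 5 monocyte genes were lower at an unadjusted p under 0.05, with a median of -0.28. Of all 9819 genes tested there, 1257 were under that p in limma-voom, in either direction. The summed monocyte list was 602, 598 and 615 CPM with saline and 461, 503 and 575 CPM with CGRP in macrophages, and 7470, 8687 and 6732 CPM with saline and 7796, 6350 and 5770 CPM with CGRP in neutrophils, with 0 of its genes at 0 counts in any library. The summed macrophage list in neutrophils was 21315, 25138 and 20287 CPM with saline and 19551, 16082 and 15329 CPM with CGRP. Of the 10 neutrophil genes, 0 passed in neutrophils by limma-voom, edgeR or DESeq2 (2 were lower at an unadjusted p under 0.05), and of the 8 tested in macrophages 0 passed by any of these tools (2 were higher at that p). Of the 10 macrophage genes, 0 passed in macrophages by these tools (3 were higher at that p). Among all 9393 genes tested in macrophages, 1860 were under that p in limma-voom, in either direction, so such counts were common. The part of these shifts in the results for the receptor genes was not tested.

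**Figure D1:**
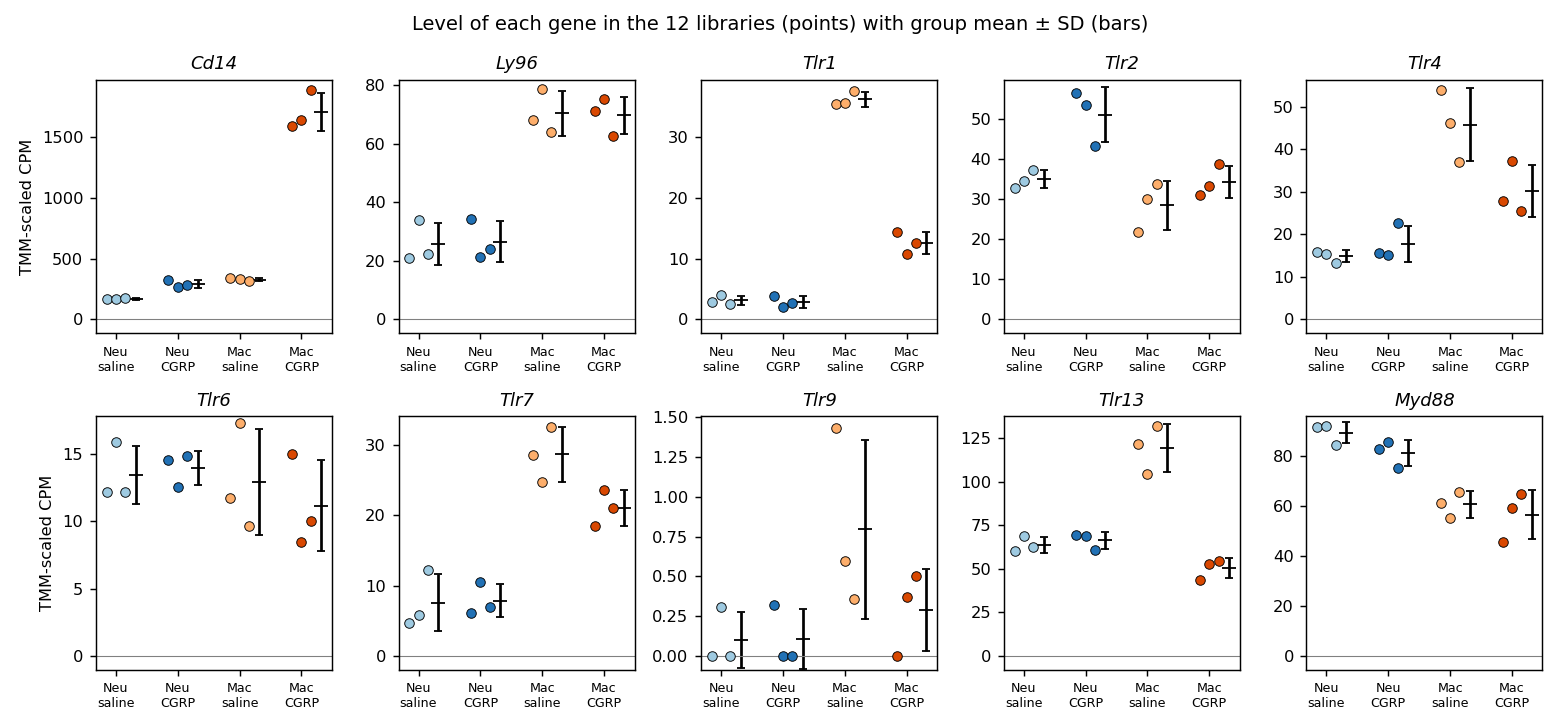
TMM-scaled CPM (vertical axes, linear, each panel with its own scale) of the 10 genes in neutrophils (Neu) and macrophages (Mac) with saline or CGRP; points are the 3 libraries of a group in replicate order, and bars are the mean ± SD. *Cd14* stood at 1594 to 1886 CPM in the CGRP macrophages and at or below 340 CPM in the other 9 libraries, while *Tlr1* and *Tlr13* were lower in every CGRP macrophage library than in every saline one.

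The lipopolysaccharide receptor was described first. *Cd14* (ENSMUSG00000051439; GRCm38 chromosome 18, 36725067 to 36726798, minus strand, 2 exons) was at 340, 328 and 314 CPM in the 3 saline macrophage libraries and at 1594, 1644 and 1886 CPM in the 3 CGRP libraries. These levels rested on 877 to 1189 counts with saline and 3761 to 5103 counts with CGRP. Every CGRP macrophage library was thus far above every saline one, and the log2 fold change was 2.38 ± 0.12 (SE; 95% interval 2.12 to 2.64, limma-voom, adjusted p = 5.40e-09).

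In neutrophils *Cd14* was at 168, 163 and 176 CPM with saline and at 327, 265 and 279 CPM with CGRP. The groups did not overlap here either, and CGRP replicate 1 was the highest. The log2 fold change was 0.79 ± 0.09 (95% interval 0.60 to 0.98, limma-voom, adjusted p = 1.74e-05). The difference between the effects in the cell types, tested as an interaction over the 12 libraries, was 1.60 ± 0.15 on the log2 scale (95% interval 1.29 to 1.91; adjusted p = 5.66e-07). The order of the group means was CGRP macrophages, saline macrophages, CGRP neutrophils and saline neutrophils, and the libraries of the middle pair, 314 to 340 and 265 to 327 CPM, overlapped.

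*Ly96* (ENSMUSG00000025779; chromosome 1, 16688051 to 16709611, plus strand), whose product MD-2 holds the lipid part of lipopolysaccharide, passed the test in neither cell type. Its level in macrophages was 68.1, 78.9 and 64.1 CPM with saline and 71.2, 75.1 and 62.7 CPM with CGRP. These groups overlapped, with a log2 fold change whose 95% interval ran from -0.32 to 0.32 (limma-voom, adjusted p = 0.994). In neutrophils it was 20.9, 33.9 and 22.2 CPM with saline and 34.3, 21.3 and 24.0 CPM with CGRP (log2 fold change 0.05 ± 0.20, adjusted p = 0.957). Of its exonic 31-base words, 2.16% also occur in other genes.

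*Tlr4* (ENSMUSG00000039005; chromosome 4, 66827584 to 66930284, plus strand), the signalling receptor for lipopolysaccharide, was at 54.0, 46.3 and 36.9 CPM in saline macrophages and at 27.8, 37.2 and 25.6 CPM in CGRP macrophages. The groups overlapped by a narrow margin, since CGRP replicate 2 (37.2 CPM) was just above saline replicate 3 (36.9 CPM). The log2 fold change was -0.59 ± 0.20 (95% interval -1.02 to -0.17) and missed the threshold (limma-voom, unadjusted p = 0.00922, adjusted p = 0.0912). It passed in 3 of 10 other settings, with quality weights, with the replicate number as a block (adjusted p = 0.0239) and in a single fit over the 12 libraries, and also without saline macrophage replicate 3 (adjusted p = 0.0326). In neutrophils *Tlr4* was at 15.9, 15.3 and 13.3 CPM with saline and at 15.5, 15.2 and 22.7 CPM with CGRP, where replicate 3 stood apart from the other 5 libraries (log2 fold change 0.21 ± 0.21, adjusted p = 0.761). The difference between the effects was -0.80 ± 0.30 on the log2 scale (adjusted p = 0.209).

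The lipopeptide receptors did not share a pattern. *Tlr1* (ENSMUSG00000044827; chromosome 5, 64924679 to 64933563, minus strand) was at 35.5, 35.5 and 37.6 CPM in saline macrophages and at 14.4, 10.7 and 12.5 CPM in CGRP macrophages. The saline libraries were close together and each was well over every CGRP library. The log2 fold change was -1.51 ± 0.21 (95% interval -1.96 to -1.06, limma-voom, adjusted p = 2.23e-04). In neutrophils *Tlr1* had 6 to 13 counts per library, 2.51 to 3.97 CPM with saline and 2.04 to 3.89 CPM with CGRP, and was left out of the test by the filter on low counts. The interaction for *Tlr1*, which rests on these few neutrophil counts, was -1.36 ± 0.46 (adjusted p = 0.144).

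*Tlr6* (ENSMUSG00000051498; chromosome 5, 64952031 to 64960097, minus strand), the other partner of TLR2 and the neighbour of *Tlr1* on the chromosome, was at 11.7, 17.3 and 9.67 CPM in saline macrophages and at 14.99, 8.47 and 10.0 CPM in CGRP macrophages. In neutrophils it was at 12.2, 15.9 and 12.2 CPM with saline and at 14.6, 12.6 and 14.8 CPM with CGRP. The groups overlapped in both cell types, with log2 fold changes of -0.18 ± 0.30 in macrophages (limma-voom, adjusted p = 0.796) and 0.06 ± 0.21 in neutrophils (adjusted p = 0.955). The 2 genes are near-identical in part, since 20.1% of the exonic 31-base words of *Tlr1* are shared with *Tlr6* (6.38% in the last 500 bases). How far from the 3′ end the reads fell was not measured. How the counting treated reads that match both is not given in the sources used here, so their separate counts are uncertain to that extent.

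*Tlr2* (ENSMUSG00000027995; chromosome 3, 83836272 to 83841767, minus strand), the common subunit of both heterodimers, was at 32.8, 34.5 and 37.3 CPM in saline neutrophils and at 56.3, 53.4 and 43.2 CPM in CGRP neutrophils. Every CGRP library was above every saline library, and replicate 3 was the lowest of the CGRP group. The log2 fold change was 0.57 ± 0.14 (95% interval 0.28 to 0.86, limma-voom, adjusted p = 0.0270). The call held in 7 of 10 other settings and was lost with DESeq2 (adjusted p = 0.0610), in a single fit over the 12 libraries (0.121) and after thinning the counts to the smallest library (0.153). It was also lost without saline replicate 1 (adjusted p = 0.145), saline replicate 2 (0.136), CGRP replicate 1 (0.0942) or CGRP replicate 2 (0.132), with a log2 fold change of 0.51 to 0.66 across the 6 leave-one-out fits. In macrophages *Tlr2* was at 21.7, 29.9 and 33.7 CPM with saline and at 30.9, 33.1 and 38.6 CPM with CGRP. Those groups overlapped (log2 fold change 0.29 ± 0.20, adjusted p = 0.476), and the difference between the effects in the cell types did not pass the interaction test (-0.27 ± 0.24, 95% interval -0.77 to 0.23, adjusted p = 0.720).

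Among the endosomal receptors, *Tlr13* (ENSMUSG00000033777; chromosome X, 106143204 to 106160493, plus strand) was at 122, 105 and 132 CPM in saline macrophages and at 43.7, 53.0 and 54.7 CPM in CGRP macrophages. Each saline library was above each CGRP library, and the log2 fold change was -1.24 ± 0.16 (95% interval -1.58 to -0.91, limma-voom, adjusted p = 7.99e-05). In neutrophils *Tlr13* was at 60.3, 69.1 and 62.4 CPM with saline and at 69.3, 69.2 and 60.7 CPM with CGRP. The neutrophil groups overlapped (log2 fold change 0.07 ± 0.11, adjusted p = 0.857). The difference between the effects was -1.31 ± 0.19 (95% interval -1.70 to -0.91; adjusted p = 2.27e-04). With saline the macrophage level was above that of neutrophils, and with CGRP the order of the means was turned, at 50.5 ± 5.90 CPM in macrophages and 66.4 ± 4.95 CPM in neutrophils (SD, n = 3).

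*Tlr7* (ENSMUSG00000044583; chromosome X, 167304929 to 167330558, minus strand) was at 28.6, 24.8 and 32.6 CPM in saline macrophages and at 18.4, 23.6 and 21.1 CPM in CGRP macrophages. The groups did not overlap, yet the log2 fold change of -0.44 ± 0.20 missed the threshold (limma-voom, unadjusted p = 0.0470, adjusted p = 0.243). Groups that do not overlap were common, at 24.1% of all genes tested in macrophages and 17.6% in neutrophils. They included 1 member that was higher and 3 that were lower in macrophages, and 2 that were higher in neutrophils. In neutrophils *Tlr7* was at 4.69, 5.81 and 12.2 CPM with saline and at 6.15, 10.5 and 6.98 CPM with CGRP (log2 fold change 0.22 ± 0.34, adjusted p = 0.859). *Tlr9* (ENSMUSG00000045322; chromosome 9, 106222598 to 106226883, plus strand) had 0 to 5 counts in any library, 8 over the saline macrophages, 2 over the CGRP macrophages and 1 in each neutrophil group. These counts were too few for the filter, so *Tlr9* was not tested in any comparison.

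*Myd88* (ENSMUSG00000032508; chromosome 9, 119335934 to 119341411, minus strand) was at 61.2, 55.0 and 65.6 CPM in saline macrophages and at 45.6, 58.9 and 64.7 CPM in CGRP macrophages. In neutrophils it was at 91.2, 91.7 and 84.3 CPM with saline and at 82.6, 85.2 and 75.1 CPM with CGRP. Both pairs of groups overlapped, with log2 fold changes of -0.13 ± 0.17 in macrophages (limma-voom, adjusted p = 0.745) and -0.12 ± 0.10 in neutrophils (adjusted p = 0.699). The gene overlaps *Acaa1a*, a peroxisomal thiolase gene on the opposite strand that had 108 to 377 counts per library. Whether the counting used strand is not given in the sources used here, so reads of this pair may not be told apart. *Acaa1a* itself had log2 fold changes of -0.34 in neutrophils (adjusted p = 0.270) and -0.08 in macrophages (adjusted p = 0.811).

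**Figure D2:**
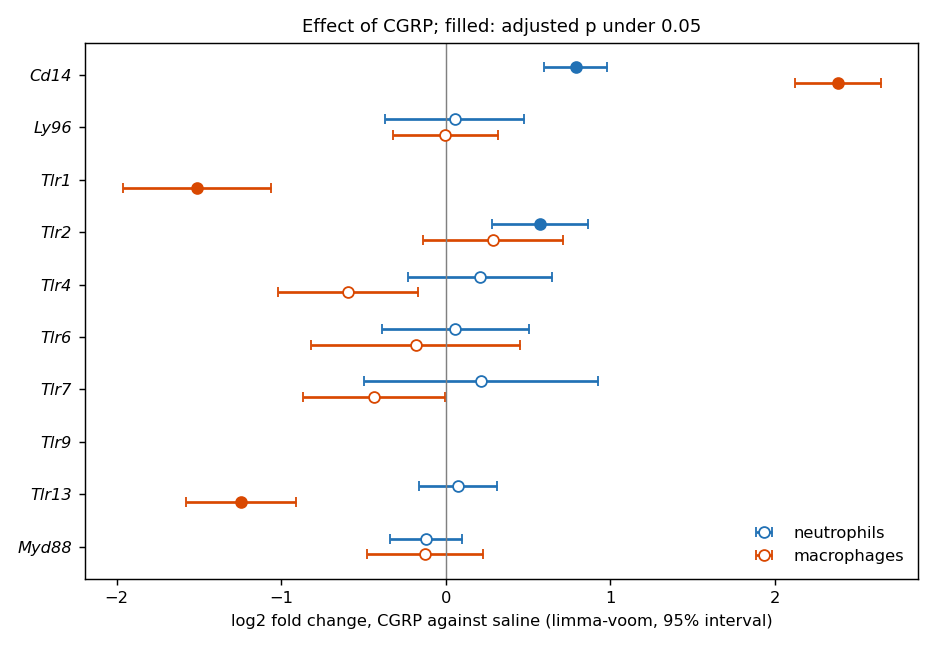
Log2 fold change of CGRP against saline (horizontal axis) with its 95% interval from limma-voom for each gene tested, in neutrophils (blue) and macrophages (orange); filled points passed an adjusted p of 0.05. *Cd14* lies to the right of zero in both cell types, *Tlr1* and *Tlr13* lie to the left in macrophages, and the intervals of *Ly96*, *Tlr6* and *Myd88* cross zero in both.

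Over the 12 libraries 9 members could be tested for a difference between the cell types in their response to CGRP. *Cd14* responded more in macrophages and *Tlr13* fell in macrophages relative to neutrophils, whereas the other 7 did not pass, against 2.36% of 10694 genes that were called. The median of the members was -0.27 on the log2 scale, against 0.020 over all genes tested. The neutrophil and macrophage tests share no library, but cell type, culture and medium cannot be told apart in this comparison.

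The promoters of *Tlr13*, *Tlr1* and *Tlr2*, which are 3 of the 4 members that CGRP moved, are shown because the CGRP receptor is known to signal through cyclic AMP, whose nuclear factor CREB binds the palindrome TGACGTCA or its shorter form TGACG, and because PU.1, which binds GGAAGT, is known for driving myeloid receptor genes. RefSeq windows of GRCm38.p6, from 250 bases before to 50 bases after a start site, matched 6 of the 10 members in 8 windows, and *Cd14*, *Ly96*, *Tlr4* and *Tlr7* were not matched. The windows of *Tlr13* (chrX:106143025-106143324, plus strand), *Tlr1* (the first of its 2 windows, chr5:64933509-64933808, minus strand) and *Tlr2* (chr3:83841559-83841858, minus strand) are printed 5′ to 3′ on the strand of the gene, with TGACG and GGAAGT on either strand in capitals.
Tlr13: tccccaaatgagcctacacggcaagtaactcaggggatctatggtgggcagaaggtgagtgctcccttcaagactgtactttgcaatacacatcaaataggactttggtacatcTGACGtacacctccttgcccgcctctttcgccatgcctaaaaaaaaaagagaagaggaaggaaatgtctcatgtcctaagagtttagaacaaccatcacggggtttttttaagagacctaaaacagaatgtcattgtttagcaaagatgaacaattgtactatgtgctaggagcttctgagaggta
Tlr1: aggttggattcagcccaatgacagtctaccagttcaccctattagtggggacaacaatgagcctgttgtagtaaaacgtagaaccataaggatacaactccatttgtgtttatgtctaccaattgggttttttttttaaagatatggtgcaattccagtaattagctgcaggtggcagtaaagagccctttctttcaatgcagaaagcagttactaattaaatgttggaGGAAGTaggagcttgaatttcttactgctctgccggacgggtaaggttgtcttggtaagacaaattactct
Tlr2: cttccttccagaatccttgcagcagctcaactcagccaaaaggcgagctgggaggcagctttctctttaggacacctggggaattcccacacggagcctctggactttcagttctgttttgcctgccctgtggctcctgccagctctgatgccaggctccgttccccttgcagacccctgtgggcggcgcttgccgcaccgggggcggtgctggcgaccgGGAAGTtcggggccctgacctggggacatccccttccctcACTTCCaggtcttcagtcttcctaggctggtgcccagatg

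Counted from the start site as 0, the *Tlr13* window held TGACG from -136 to -132 and no GGAAGT. The first *Tlr1* window held GGAAGT from -21 to -16 and no TGACG, its second window (chr5:64932650-64932949) held neither, and the *Tlr2* window held GGAAGT from -30 to -25 and, on the other strand, from 10 to 15. Members with no call for CGRP in either cell type held the same letters. The windows of *Tlr6* held TGACG once, from -73 to -69, and GGAAGT once in each window, from -62 to -57 on the other strand in one and from 16 to 21 in the other. GGAAGT was also in the window of *Myd88*, from -3 to 2, and in that of *Tlr9*, from 10 to 15 on the other strand. The full palindrome TGACGTCA was in none of the 8 windows of the members. The RefSeq windows of this length outside chromosome 18 numbered 32851. Of them, TGACGTCA was in 1.79%, TGACG in 20.8% (which counts the palindrome too) and GGAAGT in 23.8%, on either strand. These matches of letters are a description of the windows, and the windows of *Tlr1* and *Tlr13*, whose genes both fell in macrophages, had neither of the shorter motifs in common.

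At rest the genes also differed between the cell types. With saline, *Cd14*, *Ly96*, *Tlr1*, *Tlr4*, *Tlr7* and *Tlr13* were higher in macrophages than in neutrophils, *Myd88* was lower, and *Tlr2* and *Tlr6* did not pass. That is 6 higher and 1 lower among 9 members tested, where 68.5% of all 10186 genes differed, 33.0% higher and 35.5% lower in macrophages, so that a difference of this kind was common. The median log2 ratio of the members was 0.95, against -0.030 over all genes tested. *Tlr1* stood at 36.2 ± 1.22 CPM in macrophages and 3.10 ± 0.77 CPM in neutrophils (SD, n = 3), an 11.2-fold ratio (limma-voom, adjusted p = 8.28e-09). It passed the filter on low counts here through macrophages, where it is high, and its neutrophil level rests on 29 counts over the 3 saline libraries, so it had to differ and its place among the 6 is no support for them as a group.

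*Tlr7* was 4.10-fold higher in macrophages (28.7 ± 3.91 against 7.56 ± 4.05 CPM, limma-voom, adjusted p = 4.00e-06), *Tlr4* 3.04-fold (45.8 ± 8.58 against 14.8 ± 1.39 CPM; adjusted p = 1.06e-06) and *Ly96* 2.76-fold (70.4 ± 7.62 against 25.7 ± 7.16 CPM; adjusted p = 8.04e-07). *Cd14* was 1.93-fold higher (328 ± 12.9 against 169 ± 6.53 CPM; adjusted p = 3.14e-07) and *Tlr13* 1.85-fold (119 ± 13.8 against 63.9 ± 4.59 CPM; adjusted p = 8.88e-06). *Myd88* was 1.48-fold lower in macrophages (60.6 ± 5.33 against 89.1 ± 4.15 CPM; adjusted p = 7.70e-04). For *Tlr2* the levels were 28.4 ± 6.10 CPM in macrophages and 34.9 ± 2.27 CPM in neutrophils (log2 ratio -0.33, 95% interval -0.71 to 0.04, adjusted p = 0.109), and *Tlr2* passed as lower without saline macrophage replicate 3 (adjusted p = 0.0326) and with quality weights (0.0121). The 2 cell types also differ in culture, medium and deposited count matrix, which cannot be told apart from cell type.

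**Figure D3:**
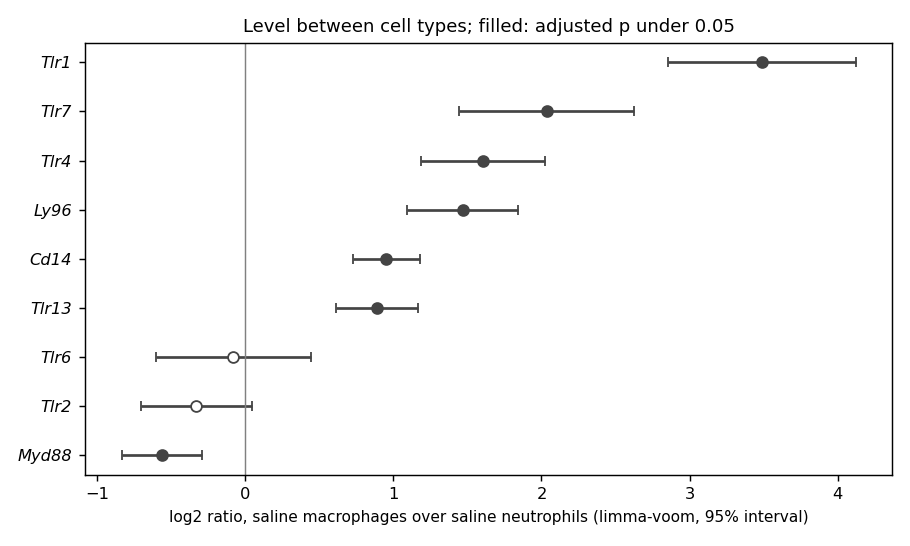
Log2 ratio of saline macrophages over saline neutrophils (horizontal axis) with its 95% interval from limma-voom for the 9 genes tested, ordered by size; filled points passed an adjusted p of 0.05. 6 genes lie above zero with intervals that exclude it, among them *Tlr1*, which entered the test through macrophages and had 29 counts over the saline neutrophils, and *Myd88* at -0.57 lies below.

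The rest of the pathway was read from 5 lists. Of the 5 other Toll-like receptor genes, *Tlr5*, which encodes the flagellin receptor, had 0 counts in each of the 3 saline macrophage libraries and 5, 9 and 4 counts in the CGRP libraries. Set against a floor of 3 counts over the saline group, the CGRP level was 7.31-fold higher. That ratio leaves out the counting error of the CGRP counts and the spread between libraries. The gene was too low to be tested in macrophages alone. In neutrophils *Tlr5* was at 3.12, 4.89 and 3.23 CPM with saline and at 3.89, 5.84 and 2.62 CPM with CGRP, which overlap (log2 fold change 0.15 ± 0.39, limma-voom, adjusted p = 0.921). *Tlr5* entered the fit over the 12 libraries through its neutrophil counts, and there the interaction had an adjusted p of 4.36e-03. As that value sets neutrophils against a macrophage group at 0, no difference is read from it. *Tlr8*, a receptor for single-stranded RNA, was at 5.43, 3.88 and 8.96 CPM in saline macrophages and at 6.25, 13.3 and 13.5 CPM in CGRP macrophages (log2 fold change 0.82 ± 0.38, adjusted p = 0.241). *Tlr3* had at most 10 counts in a library, and *Tlr11* and *Tlr12* at most 3. Thus 1 of the 5 genes was tested in each cell type and 0 were called, by limma-voom, edgeR or DESeq2 (unadjusted p = 0.699 for *Tlr5* in neutrophils and 0.0463 for *Tlr8* in macrophages). Of all genes tested, limma-voom called 2.53% in neutrophils and 7.43% in macrophages.

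Of 14 genes for accessory proteins, chaperones and proteases that carry, fold or cleave the receptors, 1 rose and 0 fell among the 14 tested in neutrophils (median log2 fold change 0.037, with 3 lower at an unadjusted p under 0.05 and 0 lower by edgeR or DESeq2), and 1 rose and 1 fell among the 13 tested in macrophages (median 0.14). Over all genes tested, 2.53% were called in neutrophils (median log2 fold change 0.00080) and 7.43% in macrophages (median 0.0047). In neutrophils 1257 of all 9819 genes had an unadjusted p under 0.05 in limma-voom, in either direction. *Cd180*, a surface relative of TLR4, was at 55.8, 53.2 and 63.8 CPM in saline macrophages and at 18.4, 14.7 and 19.1 CPM in CGRP macrophages. It fell by 1.72 ± 0.20 on the log2 scale with no overlap (limma-voom, adjusted p = 2.82e-05), and the call held whichever of the 6 libraries was left out. *Ctsl*, the gene of the endosomal protease cathepsin L, rose in macrophages (2578, 2798 and 2282 CPM with saline, 4132, 3885 and 3329 CPM with CGRP; log2 fold change 0.57, adjusted p = 0.0119). It rose in neutrophils by 0.37 (adjusted p = 0.0296), which held in 1 of 6 leave-one-out fits, against 4 of 6 in macrophages.

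Of 25 adaptors and receptor-proximal signalling genes, 1 rose and 1 fell among the 22 tested in neutrophils (median log2 fold change 0.16), and 0 rose and 1 fell among the 23 tested in macrophages (median -0.048, with 0 higher at an unadjusted p under 0.05 and by edgeR or DESeq2), beside the 2.53% and 7.43% of all genes. *Tirap*, the bridging adaptor between TLR2 or TLR4 and MyD88, was at 47.5, 46.5 and 48.4 CPM in saline neutrophils and at 67.3, 63.0 and 64.6 CPM in CGRP neutrophils (log2 fold change 0.46 ± 0.12, limma-voom, adjusted p = 0.0331). The call for *Tirap* was lost whichever library was left out (adjusted p 0.0658 to 0.170). *Map3k8*, a kinase upstream of ERK, fell in neutrophils from 31.6, 32.7 and 29.8 CPM to 20.4, 13.7 and 16.1 CPM (log2 fold change -0.91 ± 0.18, adjusted p = 5.11e-03; held in 5 of 6). *Pik3ap1*, which links these receptors to PI3K, fell in macrophages from 11.4, 7.47 and 8.60 CPM to 2.81, 3.31 and 3.01 CPM (log2 fold change -1.51 ± 0.37, adjusted p = 0.020; held in 2 of 6). *Pik3ap1* passed the filter on low counts through its saline libraries, where it is high, so its call is no support for the list.

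Of 15 negative regulators of the pathway, 1 rose and 1 fell among the 14 tested in neutrophils (median log2 fold change -0.021), and 1 rose and 1 fell among the 11 tested in macrophages (median 0.063), where 2.53% and 7.43% of all genes were called. *Atf3*, a transcription factor known to restrain cytokine genes, was at 238, 286 and 224 CPM in saline macrophages and at 64.7, 55.2 and 44.1 CPM in CGRP macrophages. It fell by 2.17 ± 0.17 on the log2 scale (limma-voom, adjusted p = 5.61e-07), whichever library was left out. In neutrophils *Atf3* was at 18.7, 14.1 and 16.5 CPM with saline and at 20.7, 15.8 and 20.1 CPM with CGRP, which overlap. *Tank*, an inhibitor of TRAF signalling, rose in macrophages by 0.76 (adjusted p = 0.0250; held in 3 of 6). In neutrophils *Dusp1*, a phosphatase of MAP kinases, rose by 0.41 (adjusted p = 0.0249) and *Pdlim2*, which promotes degradation of NF-κB, fell by 0.37 (adjusted p = 0.0338), each held in 1 of 6.

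Genes that Toll-like receptor ligands are known to induce went both ways. Of 26 such genes, 2 rose and 0 fell among the 17 tested in neutrophils (median log2 fold change 0.052, with 0 lower at an unadjusted p under 0.05 and by edgeR or DESeq2), and 2 rose and 3 fell among the 12 tested in macrophages (median -0.22). The shares over all genes tested were 2.53% and 7.43%, with medians of 0.00080 and 0.0047. *Il1b*, the interleukin-1β gene, was at 3.43, 4.18 and 5.37 CPM in saline macrophages and at 61.8, 56.7 and 50.2 CPM in CGRP macrophages. That was a 13.1-fold rise (log2 fold change 3.71 ± 0.29, limma-voom, adjusted p = 6.41e-07). In neutrophils *Il1b* rose 2.09-fold, from 84.0, 94.8 and 97.6 CPM to 192, 216 and 163 CPM (adjusted p = 3.22e-06). Both calls held whichever library was left out.

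The chemokine genes *Ccl3* and *Ccl4* and the TNF gene fell in macrophages, while the chemokine gene *Ccl5* rose. *Ccl3* fell from 39.5, 34.4 and 49.8 CPM to 16.9, 12.9 and 10.0 CPM (log2 fold change -1.58 ± 0.24, limma-voom, adjusted p = 5.12e-04). *Ccl4* fell from 52.0, 59.4 and 64.5 CPM to 17.5, 17.3 and 12.04 CPM (log2 fold change -1.87 ± 0.21, adjusted p = 2.30e-05), and neither gene's groups overlapped. *Tnf* fell from 24, 13 and 10 counts to 3, 3 and 1 counts (log2 fold change -2.24 ± 0.53, adjusted p = 0.0149; held in 2 of 6). *Tnf* passed the filter on low counts through its saline libraries, where it is high, so its call is no support for the list. *Ccl5* rose by 0.60 in macrophages (adjusted p = 0.0473; held in 1 of 6). In neutrophils *Acod1*, the gene of the itaconate-producing enzyme, rose from 3.12, 3.97 and 5.02 CPM to 14.2, 10.8 and 10.0 CPM (log2 fold change 1.55 ± 0.31, adjusted p = 5.86e-03; held in 4 of 6). *Acod1* passed the filter on low counts through its CGRP libraries, where it is high, so its call is no support for the list. Some calls in these lists depended on the setting. Of 10 other settings, the neutrophil call of *Ctsl* held in 8 (highest adjusted p = 0.234), that of *Pdlim2* in 7 (0.162) and those of *Tirap* (0.148) and *Dusp1* (0.0932) in 6 each, with DESeq2 and the single fit over the 12 libraries among those that lost all 4. In macrophages the call of *Ccl5* held in 6 of 10 (highest adjusted p = 0.103) and that of *Tank* in 9 of 10 (0.0720). DESeq2 gave no adjusted p for *Acod1*.

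**Figure D4:**
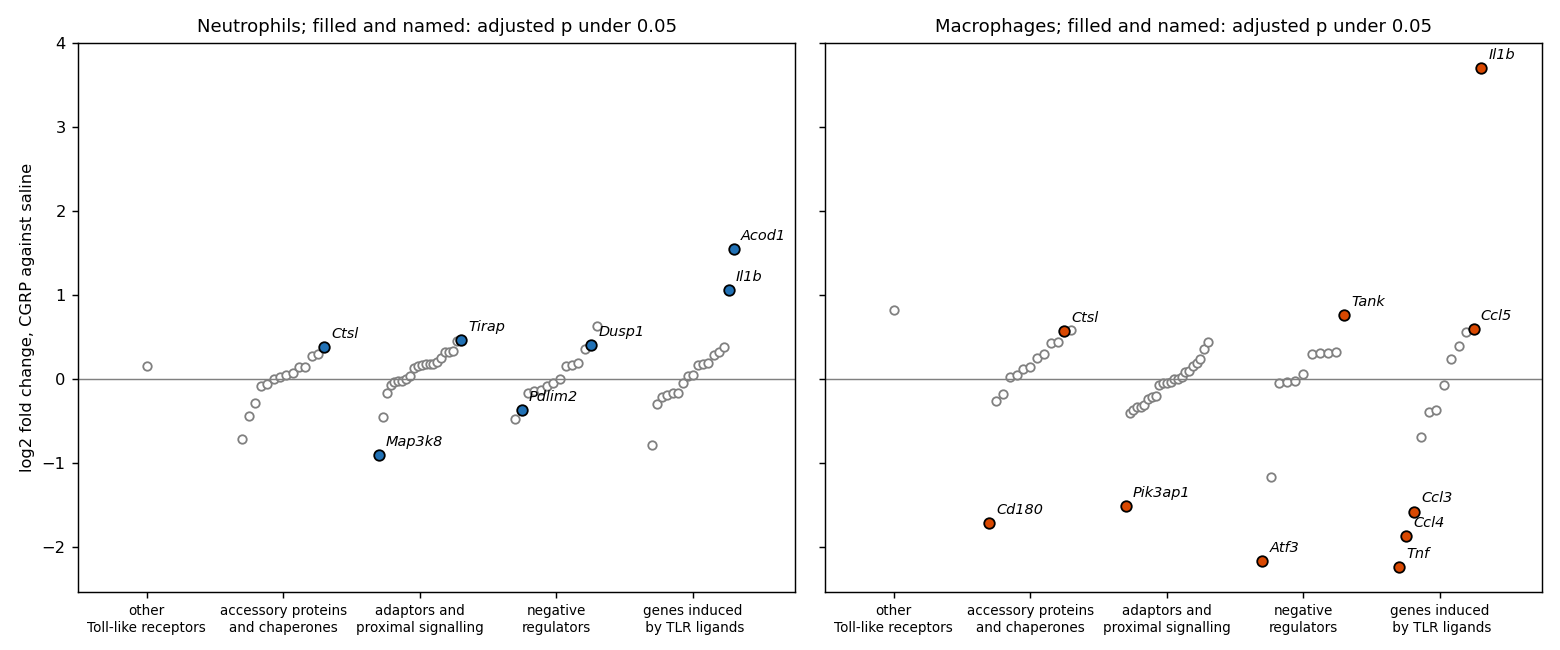
Log2 fold change of CGRP against saline (vertical axis) for the tested genes of the 5 pathway lists (horizontal axis, ordered by value within a list) in neutrophils and macrophages; filled, named points passed an adjusted p of 0.05. Most open points lie near zero, and in macrophages *Il1b* at 3.71 stands opposite *Atf3*, *Tnf*, *Ccl4*, *Cd180*, *Ccl3* and *Pik3ap1*, which fell by 1.51 or more. *Tnf* and *Pik3ap1* entered the macrophage test through their saline libraries, and *Acod1* the neutrophil test through its CGRP libraries.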

How the data were processed

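In nfCore/RNAseq (v3.2) the authors collapsed reads with the same molecular identifier, aligned the 3′-end reads to GRCm38 with STAR and deposited raw counts per gene from featureCounts, in a separate matrix for each cell type. The annotation release, strand setting and any filter on low counts are not given in the sources used here. All values were whole numbers, and 0 pairs of libraries were identical.

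Genes were kept by filterByExpr of edgeR (4.0.16), scaled by TMM and tested by limma-voom (limma 3.58.1 in R 4.3.3; two-sided, Benjamini–Hochberg adjustment over all genes tested, threshold 0.05), which the study's methods name. Each cell type was fitted on its 6 libraries, the interaction on all 12 and the cell types on their saline libraries. Scripts were tested on simulated data. Gene positions are those of GENCODE for GRCm38, which held 52489 of the 52636 gene identifiers. Promoter windows are from RefSeq (GRCm38.p6), without those of chromosome 18.

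The members, lists and tests were chosen with earlier results of these data known, so the counts are not independent evidence. Every member was named, with each list gene that passed in a CGRP comparison (at most 8 for each list and cell type), the most abundant marker of each list, and the 5 genes most like *Cd14*. *Tlr3*, *Tlr8*, *Tlr11*, *Tlr12*, *Acaa1a*, *Siglech*, the monocyte genes and the markers that passed were added after their values were seen. The alternatives were the quasi-likelihood test of edgeR, DESeq2 (1.42.0), its size factors in limma-voom, plain library totals in place of TMM, a minimum of 1 count in place of the filter, a strict filter of 10 counts in every library, quality weights for libraries (voomWithQualityWeights), a replicate block, a single fit over the 12 libraries, thinning to the smallest total, and leaving out each library in turn.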

Additional observations from a re-analysis of the deposited data

Results flagged for a closer look

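The interaction test in limma-voom over the 12 libraries, which compares the effect of CGRP between macrophages and neutrophils, called 2 of the 9 members tested and 5 of the 71 genes tested from the pathway lists, of which 4 remain without *Tlr5*, where 2.36% of all 10694 genes were called. Each difference is given as the log2 effect in macrophages minus that in neutrophils. *Cd14* differed by 1.60 (adjusted p = 5.66e-07), with a rise in both cell types, and *Tlr13* by -1.31 (adjusted p = 2.27e-04), with a fall in macrophages and overlapping groups in neutrophils. The fitted value for *Tlr5* was 3.77 (adjusted p = 4.36e-03). It rests on 0 counts in the saline macrophages and 18 in the CGRP macrophages, too few for a test in macrophages alone, and ran from 3.48 to 4.06 without single libraries and from 3.67 to 5.62 over the other settings, so that no difference is read from it.

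*Atf3* differed by -2.35 (adjusted p = 1.06e-05), *Il1b* by 2.66 (adjusted p = 1.26e-05), *Ccl3* by -1.60 (adjusted p = 7.73e-03) and *Ccl4* by -2.02 (adjusted p = 9.39e-05). *Il1b* rose in both cell types, and *Atf3*, *Ccl3* and *Ccl4* fell in macrophages with overlapping groups in neutrophils. The 6 differences other than that of *Tlr5* passed whichever of the 12 libraries was left out. The cause was not tested.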

How the results depend on the processing

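The calls of *Cd14* in every comparison, of *Tlr1* and *Tlr13* in macrophages and of *Tlr13* in the interaction held under every alternative and without any single library, and no called value changed sign. In neutrophils 1 member in place of 2 was called higher with DESeq2, in the single fit over the 12 libraries and after thinning, and 1 to 2 without single libraries. The genes called there were 248, 137 in the single fit and 138 to 234 without single libraries. In macrophages the 698 calls became 1406 with quality weights, 1050 in the single fit and 347 to 765 without single libraries, and the 252 interaction calls became 520 with quality weights and 149 to 328. Between the cell types 2 members in place of 1 were called lower with quality weights, and 1 to 2 without single libraries. The cause was not tested. Where 1 library was left out, an arm kept 2 libraries.

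The replicate numbers shared by the groups were not shown to pair libraries, since correlations of deviations between libraries of the same number were -0.0108 to 0.131 for neutrophils and -0.171 to 0.256 for macrophages. With the replicate block, 289 genes were called in neutrophils, 1007 in macrophages and 303 in the interaction; among members, *Tlr4* in macrophages was added, at 3 called lower. Depth limits *Tlr9*, and *Tlr1* in neutrophils, which had too few counts for a test.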

Other observations

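The genes whose level over the 12 libraries was most like that of *Cd14*, by Pearson's r of log2 CPM among 8634 genes tested in both cell types, were *Got1* (r = 0.983), *Gdi2* (0.976), *Cdkn1a* (0.973), *Crem* (0.973) and *Lpin2* (0.969). This is a description over libraries that share cell type and treatment. *Crem*, a gene of the cyclic AMP response, stood at 13.7 ± 1.33 CPM in saline and 178 ± 12.6 CPM in CGRP macrophages, and at 10.0 ± 0.69 CPM in saline and 18.0 ± 3.56 CPM in CGRP neutrophils (SD, n = 3). *Got1*, a transaminase gene, stood at 54.0 ± 4.76 and 294 ± 11.3 CPM in macrophages and at 33.0 ± 1.24 and 40.9 ± 6.05 CPM in neutrophils. Both genes passed in macrophages (limma-voom, adjusted p = 5.40e-09 for *Crem* and 9.61e-09 for *Got1*). Neither passed in neutrophils (limma-voom, adjusted p = 0.0692 for *Crem* and 0.359 for *Got1*). *Gdi2* passed in both cell types (limma-voom, adjusted p = 0.0444 in neutrophils and 3.75e-03 in macrophages). *Cdkn1a* and *Lpin2* passed in macrophages (adjusted p = 2.21e-04 and 9.16e-06) and not in neutrophils (0.0502 and 0.703).

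Among lists of other cell types, 0 genes of the dendritic cell, B cell, T and NK cell, eosinophil, basophil and mast cell, erythroid, megakaryocyte and progenitor lists passed limma-voom, edgeR or DESeq2 in either cell type, among 28 tested in neutrophils (3 lower and 0 higher at an unadjusted p under 0.05) and 7 in macrophages (0 at that p). Over all genes, 1257 of 9819 in neutrophils and 1860 of 9393 in macrophages were under that p in limma-voom, in either direction. *Pf4*, the most abundant megakaryocyte gene, was at 757 ± 187 CPM in saline and 782 ± 167 CPM in CGRP macrophages, and at 142 ± 1.12 and 143 ± 31.1 CPM in neutrophils. *Nkg7* and *Cd79b*, the most abundant genes of the T and NK cell and B cell lists, reached at most 108 and 76.7 CPM in a neutrophil library, and *Flt3* and *Siglech*, of which one or the other led the dendritic cell list in each neutrophil library, at most 6.71 and 6.55 CPM.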
